A study of Homo sapiens with 4 samples.

Results

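The 9 genes described here are secreted antagonists of bone morphogenetic proteins (BMPs), namely GREM1, NOG and FST, the BMP ligands BMP2, BMP4 and BMP7, and the response genes ID1, ID3 and TMEM100. All probes whose platform symbol is 1 of these names were taken, which gave 13 of 28264 probes and 9 of 19090 named genes. They were measured in TOV112D, an established epithelial ovarian cancer cell line, after transfection with a HOXD10 expression plasmid (HD) and in control cells (ND), on 2 single-colour arrays per group. ND is given as the control plasmid in the legends and as mock transfection in the methods, the transfection was of whole cultures, and the slide list carries 1 sample name for both arrays of a group. Where no source says that arrays came from separate cultures, the standard errors and p-values measure only the spread between arrays, which may be technical. The genes were chosen by their known place in BMP signalling with their HD and ND intensities in view, above all the high values of GREM1 and TMEM100 in HD cells, so the members' differences are given as a description and without p-values.

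BMPs are secreted proteins of the TGF-beta superfamily. They bind type I and type II receptor kinases on the cell surface, which phosphorylate SMAD1, SMAD5 and SMAD9, and these enter the nucleus with SMAD4 and switch on target genes. Antagonists such as gremlin, noggin and follistatin hold ligands away from the receptors outside the cell, and in the ovary BMP signalling is known for its part in follicle growth.

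The deposited normalized intensities are linear, with 50 as the lowest value in the table, and all 13 member probes were above 50 on all 4 arrays. The arrays shared a median of 361, and between 4414 and 5579 probes per array stood at 50. The HOXD10 probe read 50 on every array of both groups, and since no source says whether it lies inside the plasmid's insert, it cannot check the labels. Of the epithelial markers, CDH1 and MUC16 were at 50 on every array and PAX8 at 50 on both HD arrays, EPCAM read 1767 and 1469 in HD cells and 378 and 360.0 in ND cells, and KRT19 read 345 and 297 in HD cells and 665 and 737 in ND cells. All 7 epithelial markers looked at, of which 3 were higher and 2 lower in HD cells without overlap, summed to 2809 and 2353 in HD cells and to 1575 and 1582 in ND cells, where most of the difference was that of EPCAM. In RNA from whole cultures, fewer cells that express a gene and less of its RNA per cell cannot be told apart.

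In HD cells the antagonists were higher and the ligands lower than in ND cells on every probe, while the response genes were divided. The HD arrays lay above the ND arrays on 4 of 4 antagonist probes and below them on 5 of 5 ligand probes, and among the response genes they lay above on 1 probe and below on 3. Of all 28264 probes, 24.9% had both HD arrays above both ND arrays and 34.8% had both below. Of the probes above 50 on all arrays, as all members were, 72.0% had groups that did not overlap. Called at an adjusted p under 0.05 with limma, 3 member probes were higher (GREM1, NOG and TMEM100) and 2 were lower (BMP4 and the brighter probe of ID3), against 6.65% higher and 7.19% lower over all probes. The methods' criteria, at least 2-fold with an unadjusted p under 0.05, were applied here with the p from limma, not the authors' own p. By them 2 were higher (GREM1 and TMEM100) and 1 lower (BMP4), against 6.11% higher and 6.27% lower over all probes. These counts follow from how the genes were chosen, so nothing is read from them. At an adjusted p under 0.05 they were 4 higher and 2 lower with quantile normalization, 4 higher and 4 lower with cyclic loess, and 4 higher and 5 lower with arrays set to a common 75th percentile. Of all 28264 probes, 3300 were then higher and 2751 lower with quantile normalization, and 4973 and 3929 with cyclic loess. With a common 75th percentile 4256 were higher and 5216 lower, against 1879 and 2033 with the deposited values.

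**Figure D1:**
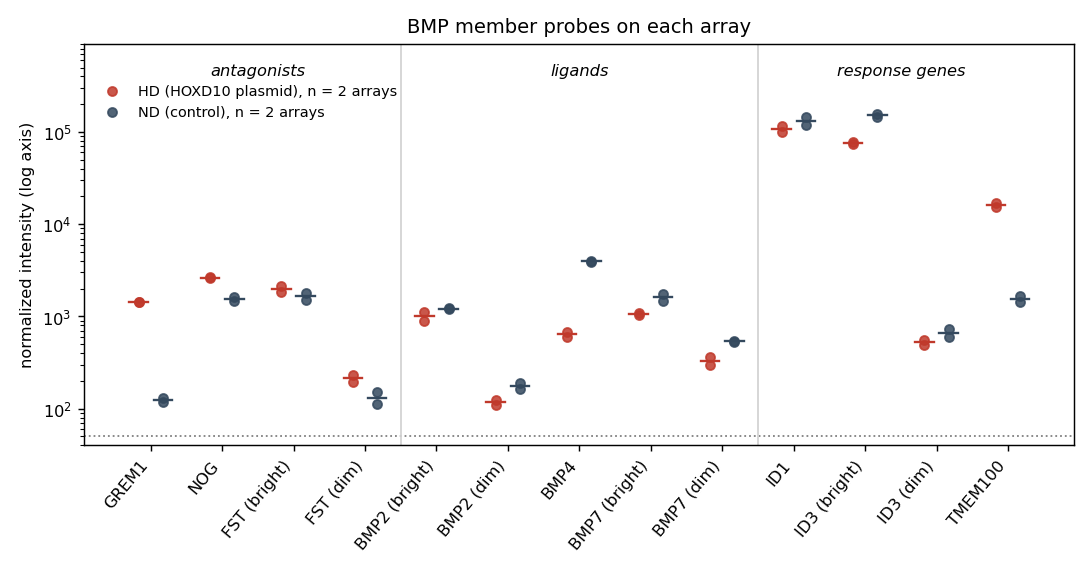
Normalized intensity (log axis) of each of the 13 member probes on the 2 HD and the 2 ND arrays. Points are arrays, short bars are group means, and the dotted line marks 50, the lowest value. The groups stand farthest apart for GREM1 (11.5-fold) and TMEM100 (10.4-fold), with HD above, and for BMP4, with ND above.

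GREM1, which encodes gremlin 1, a secreted cystine-knot protein that binds BMP2, BMP4 and BMP7, was the member with the widest difference. Its single probe gave 1429 and 1421 in HD cells and 119 and 129 in ND cells. All HD values lay far above all ND values, and the means were 1425 ± 5.26 in HD and 124 ± 7.32 in ND cells (SD, n = 2 each). The log2 fold change, HD minus ND, was 3.52 (standard error 0.0553), the 8th highest of 28264 probes. GREM1 is also made by fibroblasts, and the fibroblast markers COL1A1, COL1A2, DCN, LUM, PDGFRA, FAP and THY1, of which 6 of 7 were above 50 on all arrays, summed to 45945 and 38979 in HD cells and to 24684 and 25638 in ND cells. Of these markers, 2 were higher and 1 was lower in HD cells without overlap. Most of the difference between the sums was that of LUM alone, which read 33247 and 26472 in HD cells and 13461 and 13744 in ND cells. The part of these markers in the GREM1 difference was not tested.

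NOG encodes noggin, which binds BMP2, BMP4 and BMP7 and covers the surfaces that the receptors need. It read 2636 and 2646 in HD cells and 1479 and 1624 in ND cells. The groups did not overlap, and the log2 fold change was 0.77 (standard error 0.0616), a difference of 1.70-fold against 11.5-fold for GREM1. FST encodes follistatin, which holds activins tightly and some BMPs less so. Its brighter probe read 2143 and 1829 in HD cells and 1512 and 1805 in ND cells. The lower HD array was only just above the higher ND array, and the log2 fold change of 0.26 (standard error 0.153) was small beside the spread between arrays. The dimmer FST probe read 230 and 195 in HD cells and 112 and 152 in ND cells, a log2 fold change of 0.70 (standard error 0.220). The antagonists thus differed in size of change, with GREM1 alone past 2-fold.

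Among the ligands BMP4, which drives BMP signalling in the developing reproductive tract and many other tissues, was far lower in HD cells. BMP4 read 683 and 603 in HD cells and 3906 and 4042 in ND cells. The means were 643 ± 56.8 in HD and 3974 ± 96.1 in ND cells (SD, n = 2 each). The log2 fold change was -2.63 (standard error 0.0841), the 34th lowest of 28264 probes, so that ND cells had 6.19 times the HD level.

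BMP2, a close relative of BMP4 that uses the same receptors, differed much less. Its brighter probe read 898 and 1123 in HD cells and 1218 and 1222 in ND cells, a log2 fold change of -0.28 (standard error 0.144). The dimmer BMP2 probe read 123 and 111 in HD cells and 162 and 191 in ND cells, a log2 fold change of -0.59 (standard error 0.125). Both probes were lower in HD cells without overlap. Neither was called with limma at an adjusted p under 0.05 on the deposited values. BMP7, a ligand of a second BMP subgroup with a wide role in epithelial tissues, read 1091 and 1025 in HD cells and 1467 and 1772 in ND cells on its brighter probe. Its dimmer probe read 361 and 302 in HD cells and 529 and 543 in ND cells. The BMP7 probes gave close log2 fold changes of -0.61 (standard error 0.128) and -0.70 (standard error 0.118).

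The start of transcription of GREM1 and of BMP4 is shown because these were the members with the highest and the lowest log2 fold change. RefSeq promoter windows of build GRCh38.p14 were at hand for 5 of the 9 members (GREM1, FST, BMP4, ID1 and ID3), with 8 start sites in all. The 250 bases before the first listed start are given 5′ to 3′, and capitals mark GGCGCC, a GC-rich sequence of the kind that SMAD1 and SMAD5 bind, which reads the same on both strands.
GREM1, chr15:32717754-32718003, plus strand: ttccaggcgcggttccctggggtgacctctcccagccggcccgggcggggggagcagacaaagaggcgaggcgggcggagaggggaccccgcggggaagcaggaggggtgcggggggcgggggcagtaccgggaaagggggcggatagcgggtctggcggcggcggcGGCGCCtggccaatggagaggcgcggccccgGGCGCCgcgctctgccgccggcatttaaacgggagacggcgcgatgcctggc
BMP4, chr14:53955051-53955300, minus strand: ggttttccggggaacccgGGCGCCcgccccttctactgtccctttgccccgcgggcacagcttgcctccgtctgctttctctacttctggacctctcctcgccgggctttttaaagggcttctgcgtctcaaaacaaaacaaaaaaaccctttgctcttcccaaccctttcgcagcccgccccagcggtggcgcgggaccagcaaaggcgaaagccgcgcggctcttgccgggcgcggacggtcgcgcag

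The GREM1 window holds GGCGCC 2 times, beginning 83 and 52 bases before the start, and the BMP4 window holds it 1 time, beginning 232 bases before the start. Of 35116 windows of this length, 16.4% hold it. The windows of FST, ID1 and ID3, and those of the other GREM1 and BMP4 starts, held no match. The shorter SMAD-binding sequence CAGAC, searched on both strands, was found in the windows shown of GREM1 (196 and 99 bases before the start) and BMP4 (181 bases), in the second GREM1 window (121 bases), the third BMP4 window (46 bases) and that of ID3 (147 bases), and 38% of all windows hold it. TTTATTG and TTTACGA, sequences of the kind that posterior HOX proteins bind, were searched on both strands and had no match in any of the 8 windows, and 3.66% and 0.444% of all windows hold them. None of these letter strings overlaps another in the windows shown. A match describes letters in these windows and is not a bound site.

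The response genes did not move together. ID1 and ID3 encode inhibitors of basic helix-loop-helix factors and are direct SMAD targets in many cell types. ID1 read 115269 and 99968 in HD cells and 119007 and 146329 in ND cells. The HD arrays were below the ND arrays, with little room between them, and the log2 fold change was -0.30 (standard error 0.161). The brighter probe of ID3 read 77813 and 74530 in HD cells and 145527 and 158227 in ND cells, a log2 fold change of -0.99 (standard error 0.0618). The dimmer ID3 probe read 492 and 554 in HD cells and 594 and 739 in ND cells, a log2 fold change of -0.34 (standard error 0.159).

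ID1 and the brighter ID3 probe are among the brightest on the array, above 99.4% and 99.3% of all probes in mean log2 intensity, and probes of that brightness lay below 0 as a whole. The 500 probes nearest to them in brightness had a median log2 fold change of -0.92 for both. Relative to that median ID1 stood at 0.63 and ID3 at -0.07. The direction of ID1 depended on the scaling, with a log2 fold change of -0.30 both on the deposited scale and with a common 75th percentile, but 0.58 with quantile and 0.61 with cyclic loess normalization. ID3 on its brighter probe kept its direction but was near 0 after quantile (-0.14) and cyclic loess (-0.11) normalization. The dimmer ID3 probe had -0.34 on the deposited scale and -0.37 with cyclic loess normalization. Setting a common 75th percentile shifts all log2 fold changes by the same small amount, so it could not turn ID1. The lower level of ID1 in HD cells therefore held with the deposited values but not with quantile or cyclic loess normalization.

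**Figure D2:**
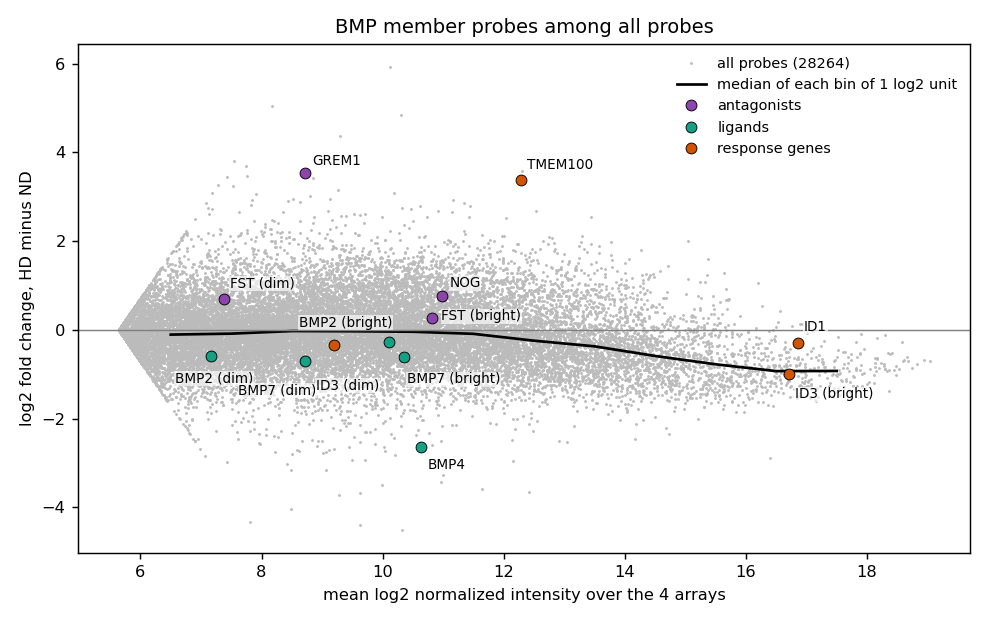
Log2 fold change (HD minus ND) against mean log2 normalized intensity for all 28264 probes (grey) and the 13 member probes (coloured by role). The line joins the median of each bin of 1 log2 unit, which falls to -0.93 between 16 and 17, where ID1 and the brighter ID3 probe lie.

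TMEM100, which encodes a small membrane protein known as a target of BMP9 and BMP10 through the receptor ALK1 in endothelial cells, read 16800 and 15571 in HD cells and 1422 and 1688 in ND cells. The groups were far apart, and the means were 16186 ± 869 in HD and 1555 ± 188 in ND cells (SD, n = 2 each). The log2 fold change was 3.38 (standard error 0.121), the 12th highest of 28264 probes, and it was 3.58 with quantile and 3.60 with cyclic loess scaling. ALK1 and its coreceptor were at or near the lowest value, whereas the type II receptor BMPR2, which serves ALK1 and other type I receptors, read 10454 and 8831 in HD cells and 5725 and 6294 in ND cells on its brighter probe. ALK1 itself (ACVRL1) was at 50 on all arrays on its dimmer probe and between 50 and 71.5 on the other, its coreceptor endoglin (ENG) was at 50 on all arrays, and BMP10 was at 50 on 3 arrays and 51.4 on ND replicate 2. GDF2, which encodes BMP9, read 113 and 111 in HD cells and 144 and 177 in ND cells. The endothelial markers PECAM1, CDH5, VWF, KDR and TEK were all above 50 on every array. KDR was only just so in HD cells, with 51.0 and 61.9 against 164 and 69.0 in ND cells. Together the endothelial markers summed to 1038 and 1033 in HD cells and to 1360 and 1160 in ND cells. Of these markers, 3 were lower in HD cells without overlap, and TEK was higher, with 497 and 433 in HD cells and 345 and 431 in ND cells. Their part in the TMEM100 difference was not tested.

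Set side by side by role, the mean log2 intensity of the 3 antagonists (brightest probe of each gene) was 10.97 and 10.89 on the HD arrays and 9.33 and 9.50 on the ND arrays. That of the 3 ligands was 9.77 and 9.79 on the HD arrays and 10.90 and 11.01 on the ND arrays. That of the 3 response genes was 15.70 and 15.57 on the HD arrays and 14.83 and 15.05 on the ND arrays, where HD was higher through TMEM100, since ID1 and ID3 were lower with the deposited values. Over genes, the log2 fold change had a median of 0.77 for the antagonists, -0.61 for the ligands and -0.30 for the response genes, against -0.05 over all 19090 named genes. The value for the response genes is that of ID1, which was 0.58 with quantile and 0.61 with cyclic loess normalization. The -0.05 is not matched to brightness, and the probes nearest to ID1 in brightness had a median of -0.92. The mean log2 intensities by role were also compared. The response genes minus the ligands and antagonists gave a difference of 0.52 between HD and ND on the log2 scale with the deposited values and 1.16 and 1.18 after quantile and cyclic loess normalization. As the groups of genes were chosen with their values known, no test was made of this difference.

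**Figure D3:**
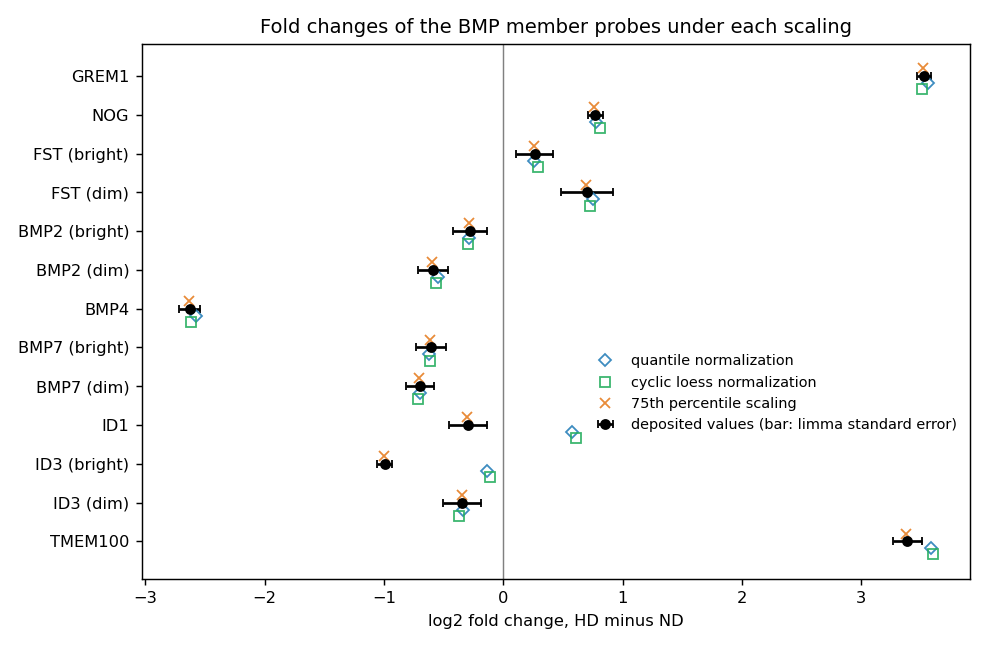
Log2 fold change (HD minus ND) of each member probe with the deposited values (black, bars are limma standard errors, 2 arrays per group) and under 3 other scalings. Among these probes and scalings only ID1 changes side, and the brighter ID3 probe lies at -0.14 and -0.11 with quantile and cyclic loess normalization.

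Of the probes with a name, those whose values ran most like GREM1 over the 4 arrays, by Euclidean distance of log2 values centred on their mean, were JAG1 (distance 0.0941), TMEM100 (0.181) and ADGB (0.242). Their log2 fold changes were 3.59, 3.38 and 3.44, beside 3.52 for GREM1, and TMEM100 is itself a member chosen for its high HD level.

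Other genes of the pathway were read from lists by role, with the brightest probe for each gene. Of 65 measured genes, 8 rose and 1 fell in HD cells (adjusted p under 0.05, limma) and 56 did not pass. Over all 19090 named genes, 6.67% rose and 7.97% fell by this rule. The counts were 17 higher and 1 lower with quantile normalization, 17 higher and 3 lower with cyclic loess, and 13 higher and 5 lower with a common 75th percentile. Calls grew over the whole table too, from 1879 probes higher and 2033 lower of 28264 with the deposited values. They were 3300 and 2751 with quantile normalization, 4973 and 3929 with cyclic loess, and 4256 and 5216 with a common 75th percentile. The median log2 fold change of the 65 genes was 0.02.

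Of 11 other BMP and GDF ligands none passed at an adjusted p under 0.05 from limma, 2 had an unadjusted p under 0.05, and the median log2 fold change was -0.08. Of all 19090 named genes, 7239 had an unadjusted p under 0.05. BMP8A read 190 and 195 in HD cells and 478 and 351 in ND cells, a log2 fold change of -1.09 (adjusted p = 0.0761 from limma) that met only the methods' criteria. BMP8A and BMP8B are close copies, and how well their probes tell them apart was not tested. The BMP8B probe read 221 and 208 in HD cells and 215 and 300 in ND cells, a log2 fold change of -0.24. Of 16 other secreted antagonists and modulators, 1 rose and none fell. This was BMPER, a secreted binding protein that can hold or help BMPs, which read 6787 and 5789 in HD cells and 738 and 936 in ND cells. Its log2 fold change was 2.92 (standard error 0.184, adjusted p = 0.0357 from limma), while its dimmer probe was at 50 on 3 arrays and 50.9 on HD replicate 2. CHRD, which encodes chordin, read 75.6 and 139 in HD cells and 80.2 and 74.0 in ND cells and did not pass.

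Of 11 receptors and coreceptors, 1 rose and none fell. BAMBI, a membrane protein built like a type I receptor without a kinase, which dampens the signal, read 21644 and 19019 in HD cells and 7692 and 7700 in ND cells (log2 fold change 1.40, standard error 0.0838, adjusted p = 0.0349 from limma). BMPR1B, a type I receptor, had a log2 fold change of 1.28 (adjusted p = 0.0554 from limma) on its brighter probe, with 1707 and 1427 in HD cells and 577 and 714 in ND cells. On its dimmer probe the arrays of each group disagreed, with 347 and 1102 in HD cells and 1067 and 361 in ND cells. BMPR2, the type II receptor, had log2 fold changes of 0.68 and 1.24 on its probes, of which neither passed at an adjusted p under 0.05.

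Of 8 SMADs and SMAD ubiquitin ligases, 2 rose and none fell. SMAD9, a receptor-regulated SMAD, read 611 and 582 in HD cells and 335 and 351 in ND cells (log2 fold change 0.80, adjusted p = 0.0343 from limma). SMURF2, a ubiquitin ligase that marks SMADs and receptors for breakdown, rose by 1.05 on the log2 scale (adjusted p = 0.0373 from limma). SMAD7, an inhibitory SMAD, had a log2 fold change of 1.22 (adjusted p = 0.0543 from limma) with 692 and 749 in HD cells and 273 and 349 in ND cells. SMAD1, SMAD4, SMAD5 and SMAD6 did not pass, and their log2 fold changes on the brightest probe lay between -0.39 and 0.21 on the deposited scale.

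Of 11 other response genes, 3 rose and 1 fell. ID4, a relative of ID1 and ID3, read 6192 and 5195 in HD cells and 2155 and 2164 in ND cells (log2 fold change 1.39, adjusted p = 0.0394 from limma). RUNX2, the transcription factor of bone formation, read 2004 and 1595 in HD cells and 605 and 635 in ND cells on its brighter probe, which rose by 1.53 (adjusted p = 0.0430 from limma), while the dimmer had -0.20. DLX3, a homeobox factor, rose by 0.80 (adjusted p = 0.0347 from limma) on its brighter probe and had 0.12 on the dimmer. MSX1, a homeobox factor induced by BMP4 in many tissues, read 3218 and 2433 in HD cells and 10322 and 11951 in ND cells (log2 fold change -1.99, standard error 0.202, adjusted p = 0.0438 from limma). All 4 were also called under each of the 3 other scalings, and none with robust eBayes (adjusted p from limma between 0.0545 and 0.0647). With the median over its probes DLX3 had 0.46 and was not called (adjusted p = 0.0508 from limma). ID2, the remaining ID gene, is as bright as ID1 and likewise changed side, with -0.49 on the deposited scale, where it did not pass, 0.31 with quantile and 0.34 with cyclic loess normalization. On the deposited scale the ID family had no common direction, with ID4 higher and ID3 lower. With quantile and cyclic loess normalization ID1, ID2 and ID4 were higher. The brighter ID3 probe was then near 0 (-0.14 and -0.11) and the dimmer at -0.34 and -0.37, so the directions in the family depended on the scaling.

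Of 5 proteases that cut BMPs or their antagonists, none passed in either direction and none had an unadjusted p under 0.05. Of 3 E proteins, the basic helix-loop-helix partners that ID proteins hold, TCF12 rose by 1.03 (adjusted p = 0.0450 from limma) and TCF3 and TCF4 did not pass. Probes other than the brightest, noticed after their values were seen, did not always follow it. The dimmer probe of TWSG1, a secreted BMP-binding protein, had a log2 fold change of -1.62 (adjusted p = 0.0389 from limma) and the brighter 0.22, and the dimmer probe of ACVR2A, a type II receptor, rose by 1.56 (adjusted p = 0.0413 from limma) while the brighter had 0.05.

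**Figure D4:**
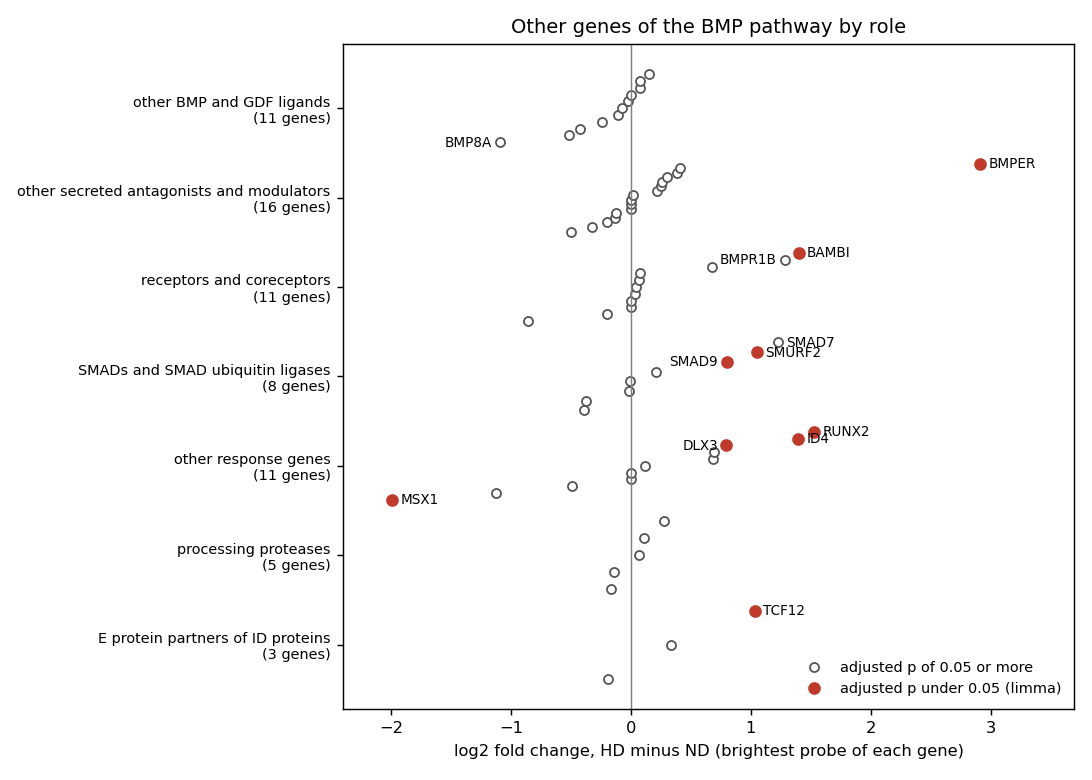
Log2 fold change (HD minus ND) of the brightest probe of each of 65 other genes of the BMP pathway, by role. Filled points passed an adjusted p under 0.05 from limma, and genes that passed or met the methods' criteria are named. BMPER lies farthest to the right and MSX1 farthest to the left.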

How the data were processed

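The authors labelled total RNA with Cy5, scanned single-colour Human Whole Genome OneArray v7 slides, measured spots with GenePix 4.1 and normalized them in Rosetta Resolver 7.2 with centring at the 75th percentile, per the methods. The deposited values are normalized intensities on a linear scale, 1 column per array. The deposited arrays have a common median but not a common 75th percentile, and no source used here states a background correction. The number of arrays limits the precision.

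The log2 of the deposited intensity was compared between 2 HD and 2 ND arrays by limma (version 3.58.1, lmFit and eBayes, run under R 4.3.3) for all 28264 probes and with no block, followed by Benjamini-Hochberg adjustment. The fit had 2 residual and 0.543 prior degrees of freedom. The platform annotation gave 1 symbol for 25893 probes, several for 0 and none for 2371. For a gene of a list the probe brightest on average was used. The members, the lists and the tests were chosen with earlier results of these data known. Genes of the pathway lists were named where that probe had an adjusted p under 0.05 or met the methods' criteria, at most 4 in each direction, and further genes were named after their values were seen. Alternatives covered scaling, a pseudocount of 50, dim probes, the variance model, the replicate number, single arrays, the call rule and the probe for a gene. Promoter windows are those of RefSeq.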

Additional observations from a re-analysis of the deposited data

How the results depend on the processing

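Of the 13 member probes, all but ID1 kept their direction under every alternative run, and ID1 turned to 0.58 after quantile and 0.61 after cyclic loess normalization. The 12 pathway genes that were called or met the methods' criteria kept theirs in all 180 refits. The filters on dim probes, the variance models and the replicate blocks leave a log2 fold change as it is, so those refits could not turn a direction. A common 75th percentile shifts all log2 fold changes by the same small amount, so it could turn only those very near 0. Of the genes that did not pass, ID2, SMAD4 and TCF3 were below 0 with the deposited values and turned to 0.31, 0.28 and 0.39 with quantile normalization and to 0.34, 0.36 and 0.40 with cyclic loess. The number of member probes called, 5 with the deposited values, was 9 after scaling to the 75th percentile, 8 after cyclic loess normalization, 9 with either filter on dim probes, 3 with robust eBayes and 3 by the methods' criteria. The number of pathway genes called, 9 with the deposited values, was 18 after quantile normalization, 18 after scaling to the 75th percentile and 20 after cyclic loess normalization. It was 17 and 18 with the filters and 0 with robust eBayes. With robust eBayes 16 pathway genes had an unadjusted p under 0.05, as had 9343 of all 28264 probes. The filters take away probes that stand at 50, and the prior degrees of freedom were 4.86 and 82.5 with them, against 0.543 without. Over all probes, 3912 were called with the deposited values, and 564 (robust eBayes) to 10326 (probes above 50 on all arrays) under these settings. The difference of response genes minus ligands and antagonists, 0.52, was 1.16 with quantile normalization, 1.18 with cyclic loess and 0.63 with the median over the probes of a gene.

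With the replicate number as a block, limma called 0 member probes, 0 pathway genes and 0 probes in all. An unadjusted p under 0.05 was seen for 13 pathway genes, and for 7701 of all 28264 probes. Same-numbered arrays deviated in opposite ways (correlation -0.32 over 28264 probes, 2 pairs), so the numbers may not pair the arrays. With 2 pairs this cannot be settled. The crossed pairing, chosen after seeing the data, also called 0 member probes and 0 pathway genes. There 18 pathway genes had an unadjusted p under 0.05, as had 9979 of all 28264 probes. Leaving out any 1 of the 4 arrays leaves 1 array in a group. That group is assumed to vary like the other, so only log2 fold changes are given. GREM1 then lay between 3.46 and 3.58 and BMP4 between -2.72 and -2.54.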

Other observations

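The arrays crossed within the groups on some probes of the pathway. FURIN, which encodes a protease that matures BMP precursors, read 1373 and 2502 in HD cells and 2643 and 1639 in ND cells, the same crossing as on the dimmer BMPR1B probe, and PDGFRA, a fibroblast marker, read 84.1 and 229 in HD cells and 209 and 77.8 in ND cells. Over the whole table, 105 probes were at least 2-fold apart within both groups. Replicate 1 lay on opposite sides in the 2 groups for 102 of them and on the same side for 3. None of the 13 member probes was among these.

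Of the very bright homeobox and helix-loop-helix response genes that did not pass with the deposited values, MSX2 had log2 fold changes of 0.69 with the deposited values, 1.41 after quantile and 1.42 after cyclic loess normalization, DLX5 had 0.69, 1.13 and 1.19, and HEY1 had 0.12, 0.82 and 0.81. These 3 genes passed an adjusted p under 0.05 from limma after both of those normalizations.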
